A study of Mus musculus with 4 samples.

Results

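T, Tbx6, Msgn1, Cdx1, Cdx2, Cdx4, Nkx1-2, Sp5, Sp8 and Cyp26a1, 10 genes of the tailbud growth zone, were described by the CTCF and RAD21 peaks around them in mouse gastruloids. The genes were listed for their roles in the embryo and not by a measured value, but earlier results of these data were known at that time. They are 10 of the 20018 protein-coding genes of the annotation on chromosomes 1 to 10, 12 to 19 and X. A CTCF site is a set of peaks of the 3 CTCF lists that overlap by 1 bp or more. Within 50 kb of the 10 gene bodies there were 67 such sites of 56026 in all, with 53 called in DelCBS7-10, 45 in InsCBS5-10 and 59 in wild type. None of the 10 genes lies on chromosome 11, which carries the edited HoxB cluster.

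Gastruloids are aggregates of embryonic stem cells that elongate in culture and form tailbud-like tissue at the posterior end. They were pooled and fixed 96 h after aggregation, and CTCF and RAD21 were mapped by ChIPmentation, an immunoprecipitation in which Tn5 adds the adapters on the beads. The DelCBS7-10 and InsCBS5-10 mutants share a HoxB copy that is deleted (Del) and a HoxB copy that lacks the i9-13 interval, written Del(i9-13), and carries inserted CTCF binding sites, written Ins(CBS5-10). DelCBS7-10 has in addition the deletion Del(CBS7-10) within those inserted sites. Wild type was the control for CTCF. RAD21 was mapped in InsCBS5-10, and a second RAD21 list has no sample of its own and is known as wild type at 96 h from its peak names alone.

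The lists held 36589 CTCF peaks in DelCBS7-10, 34499 in InsCBS5-10 and 47931 in wild type, 19610 RAD21 peaks in InsCBS5-10 and 59484 in the RAD21 list named wild type. Each list with a sample is 1 library, and how many libraries the RAD21 list named wild type rests on, and whether it was made with the others, is not known here. No difference between lists has a replicate check, and none was tested. Numbers of reads are unknown, so a site without a call in a library may still have been bound there. Fold enrichment is the authors' ratio of signal to local background at the summit. Because the lists differ in length, each fold is given with its percentile in its own list, where 100 is the strongest. Peak lists hold no expression values, so the tissue could not be checked against marker genes.

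The tailbud holds progenitors that feed the neural tube and the presomitic mesoderm as the body axis grows. Wnt and Fgf signals keep them in place through T and the Cdx factors, Tbx6 and Msgn1 drive their progeny into mesoderm, and Cyp26a1 breaks down retinoic acid that would end the growth. CTCF binds DNA and halts the cohesin ring as it extrudes chromatin loops. RAD21 is a subunit of that ring, and a CTCF peak overlapped by a RAD21 peak is called a CTCF-RAD21 site here.

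**Figure D1:**
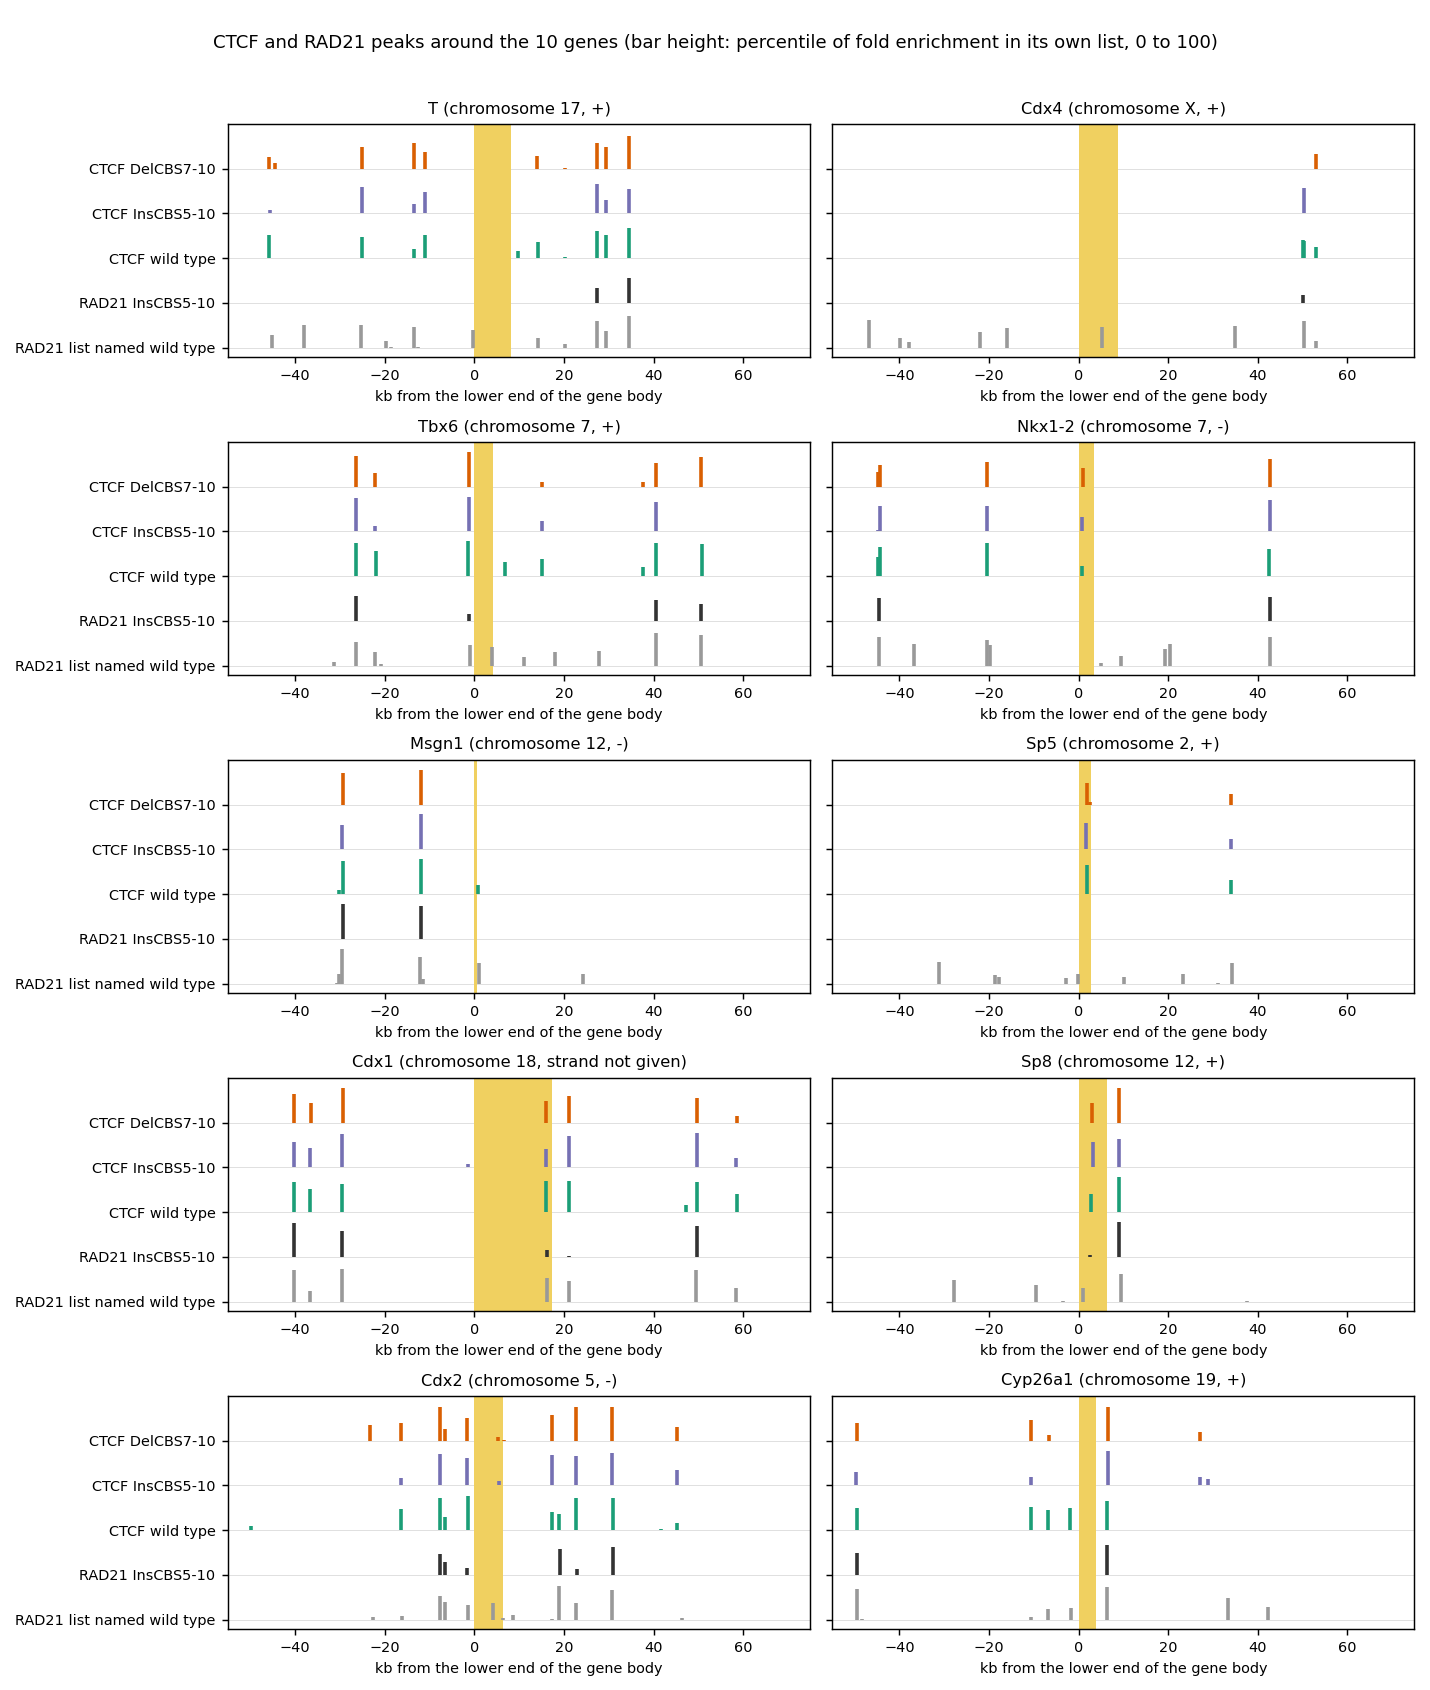
Peaks within 50 kb of each gene, with distance in kb from the lower end of the gene body on the horizontal axis and 1 row per list. Bars stand at the middle of each peak, their height is the percentile of fold enrichment in that list, and the shaded block is the gene body. Cdx4 had no CTCF site closer than 41.3 kb, while Cdx2 had 15 sites, the most of the 10 genes.

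CTCF was found at the transcription start of these genes about as often as at other genes. Strand was known for 9 of the 10 genes, all but Cdx1. Within 1 kb of the start, DelCBS7-10 had a CTCF peak at 1 of the 9 (Cdx2), InsCBS5-10 at 1 (Cdx2, by the peak inside the gene) and wild type at 1 (Msgn1). Over all protein-coding genes with a known strand the share was 11.8% in DelCBS7-10, 9.41% in InsCBS5-10 and 15.0% in wild type. RAD21 of InsCBS5-10 was within 1 kb of the start at 0 of the 9 genes, with 3.96% over all genes, while the RAD21 list named wild type had 4 (T, Msgn1, Cdx2 and Sp5), with 44.3% over all genes. This window of 1 kb was chosen after the peaks were seen. It left out Sp8, where a RAD21 summit of the list named wild type lay 1026 bp from the gene start.

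The start regions of Msgn1, Cdx2 and Sp5 are printed because a CTCF peak (Msgn1 and Cdx2) or a RAD21 peak without CTCF (Sp5) covered them. The RAD21 list named wild type also reached 109 bases of the window of T, at a fold of 4.13, and covered a further RefSeq start window inside Sp8 (118847309 to 118847608), at 3.69, both without CTCF, and these are not printed. Each is the RefSeq window of 300 bases, from 250 before to 50 after the gene start (GRCm38.p6), written 5′ to 3′ on the gene's strand. Capitals mark the stretch under the wild-type CTCF peak for Msgn1 (chr12:11208899-11209198, minus strand, 202 bases), the stretch under the DelCBS7-10 CTCF peak for Cdx2 (chr5:147307200-147307499, minus strand, 161 bases), and a TCF/LEF motif for Sp5 (chr2:70474673-70474972, plus strand).
Msgn1: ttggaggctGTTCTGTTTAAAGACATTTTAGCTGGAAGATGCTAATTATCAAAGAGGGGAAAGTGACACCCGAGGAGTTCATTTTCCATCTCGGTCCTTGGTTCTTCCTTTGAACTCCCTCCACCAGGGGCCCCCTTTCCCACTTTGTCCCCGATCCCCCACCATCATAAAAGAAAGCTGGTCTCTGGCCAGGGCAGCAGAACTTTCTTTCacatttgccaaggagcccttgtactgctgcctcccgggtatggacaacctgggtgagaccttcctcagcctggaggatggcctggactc
Cdx2: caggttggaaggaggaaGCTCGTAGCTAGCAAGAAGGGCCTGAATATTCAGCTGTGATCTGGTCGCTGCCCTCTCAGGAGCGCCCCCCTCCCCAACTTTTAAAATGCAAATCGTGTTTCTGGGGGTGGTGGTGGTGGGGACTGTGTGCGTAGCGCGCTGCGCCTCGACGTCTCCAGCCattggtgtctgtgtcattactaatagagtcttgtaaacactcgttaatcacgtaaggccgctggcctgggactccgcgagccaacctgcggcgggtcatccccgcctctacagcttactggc
Sp5: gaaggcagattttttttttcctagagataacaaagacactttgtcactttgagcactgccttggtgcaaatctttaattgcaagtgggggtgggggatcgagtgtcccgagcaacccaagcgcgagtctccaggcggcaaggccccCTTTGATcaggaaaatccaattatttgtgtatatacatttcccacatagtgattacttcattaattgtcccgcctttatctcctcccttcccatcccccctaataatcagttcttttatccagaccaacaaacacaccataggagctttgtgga
The CTCF peaks over these starts were low in their lists. The CTCF peak at Msgn1 had a fold of 3.68 (percentile 26.8) and was called in wild type alone, with RAD21 of the list named wild type over it (4.74, percentile 58.3). The CTCF peak at Cdx2 had a fold of 2.71 (percentile 1.4) and was called in DelCBS7-10 alone. A weak RAD21 peak of the list named wild type overlapped it and covered 250 bases of the window (2.54, percentile 4.2). At Sp5 the RAD21 list named wild type covered the whole window, with a fold of 3.25 (percentile 25.6) and no CTCF peak.

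These windows were searched on both strands for the CTCF core motif. None of the printed windows held it, including those of Msgn1 and Cdx2 under their CTCF peaks. Of 32817 promoter windows 3.36% held the core, with 26.1% of those under a DelCBS7-10 CTCF peak, 30.2% under an InsCBS5-10 peak and 22.1% under a wild-type peak, and 1.94% of those under no CTCF peak. The T-box motif TCACACCT was in none of the printed windows and in 1.27% of all windows. The windows of T, Tbx6, Cdx4, Nkx1-2, Sp8 and Cyp26a1 held none of the motifs searched. The TCF/LEF motif CTTTGAT was in the windows of Msgn1, from position 48 on the opposite strand and thus printed as ATCAAAG, and of Sp5, from position 147, and in 3.73% of all windows. A match is a description of the letters and does not show binding.

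T encodes Brachyury, the T-box factor of the primitive streak and the notochord. It lies on chromosome 17 from 8434423 to 8442496 and had 11 CTCF sites within 50 kb, of which 7 were in all 3 lists. Of all protein-coding genes, 93.8% had as many sites or fewer. The site with the highest wild-type fold lay 26.4 kb downstream (8468610 to 8469300), between genes. Its CTCF folds were 8.26 (percentile 90.0) in DelCBS7-10, 6.76 (68.4) in InsCBS5-10 and 10.1 (83.6) in wild type, and its RAD21 folds were 7.69 (69.9) in InsCBS5-10 and 8.56 (89.3) in the list named wild type. Closer to the gene on that side, at 19.3 kb, CTCF had folds of 6.62, 7.86 and 9.02 in DelCBS7-10, InsCBS5-10 and wild type, and RAD21 of InsCBS5-10 had 5.63 (percentile 41.8). The nearest site of any kind, 1.8 kb downstream, was called in wild type alone, with a fold of 3.32 (percentile 19.3).

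On the upstream side of T, 4 of the 5 sites within 50 kb lay inside the neighbouring gene T2, and RAD21 of InsCBS5-10 was called at 0 of the 5. The RAD21 list named wild type covered 4 of these 5. The first upstream CTCF site with RAD21 in InsCBS5-10 was 61.6 kb away, also within T2 (8372657 to 8372994). CTCF was strong there, with folds of 9.44 (percentile 95.9) in DelCBS7-10, 10.8 (97.3) in InsCBS5-10 and 14.4 (97.5) in wild type. RAD21 of InsCBS5-10 was among the weakest peaks of its list there, with a fold of 3.16 (percentile 3.4), while the list named wild type had 6.0 (72.2).

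Tbx6, the T-box factor that commits progenitors to presomitic mesoderm, lies on chromosome 7 from 126781483 to 126785548 and had 8 sites, of which 5 were in all 3 lists. Its strongest site in each CTCF list was also its nearest, 1.3 kb upstream within Ypel3 (126779938 to 126780453). The folds there were 10.3 in DelCBS7-10, 10.9 in InsCBS5-10 and 16.8 in wild type, at percentiles of 97.8, 97.5 and 99.3. RAD21 on this site was weaker in rank, with a fold of 4.34 (percentile 20.6) in InsCBS5-10 and 4.74 (58.2) in the list named wild type. The sites with more RAD21 were farther out. At 26.5 kb upstream, between genes, RAD21 of InsCBS5-10 had a fold of 7.58 (percentile 68.7), and at 36.5 kb downstream, within Tlcd3b, it had 6.84 (59.4). A wild-type peak 2.7 kb downstream, within Ppp4c, had a fold of 4.5 (percentile 38.2) and was called in neither mutant.

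A strong site downstream of Tbx6 was missing from the CTCF list of InsCBS5-10. It lay 46.6 kb from the gene (126831938 to 126832629), with CTCF folds of 7.37 (percentile 82.1) in DelCBS7-10 and 11.5 (90.4) in wild type. RAD21 was called on it in InsCBS5-10, at a fold of 6.05 (percentile 48.1), and in the list named wild type, at 7.88 (85.4). Thus InsCBS5-10 had a RAD21 peak where its CTCF library had no call.

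Msgn1, a bHLH factor of the presomitic mesoderm, is the shortest of the 10 genes, with 567 bp on chromosome 12 (11208382 to 11208948). It had 4 sites, of which 2 were in all 3 lists, and both of these were downstream and strong in each assay. At 12 kb (11196210 to 11196542) the CTCF folds were 9.69 (percentile 96.6) in DelCBS7-10, 11.3 (98) in InsCBS5-10 and 15.3 (98.5) in wild type, with RAD21 at 10.8 (92.7) in InsCBS5-10. At 29.4 kb (11178715 to 11179197) they were 8.05 (88.5), 6.8 (69.0) and 12.3 (93.1) in the same lists, with RAD21 at 12.6 (97.6). The remaining sites, 30.2 kb downstream and over the printed start, were called in wild type alone, at percentiles of 12.2 and 26.8. Upstream, the first CTCF site with RAD21 in InsCBS5-10 lay 128.1 kb away within Vsnl1, with CTCF at 6.5 (percentile 70.7) in DelCBS7-10, 7.45 (77.4) in InsCBS5-10 and 9.21 (78.5) in wild type. RAD21 of InsCBS5-10 was low in its list there, at 3.37 (5.9), and the list named wild type had 6.44 (75.7).

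The Cdx genes encode the caudal-type homeobox factors, which switch on posterior Hox genes, and they differed in the number of sites around them. Cdx2 had 15 sites and Cdx1 had 9, while Cdx4 had 3. As many sites or fewer were found for 98.4%, 87.4% and 35.3% of protein-coding genes at Cdx2, Cdx1 and Cdx4. RAD21 of InsCBS5-10 lay on 4 of the 8 InsCBS5-10 CTCF sites at Cdx2, on 5 of 8 at Cdx1 and on the 1 site at Cdx4.

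Cdx2 lies on chromosome 5 from 147300900 to 147307249, and its sites with high folds stood on both sides. The highest wild-type fold was 1.6 kb downstream (147299152 to 147299589), with 6.08 in DelCBS7-10 (percentile 64.0), 7.36 in InsCBS5-10 (76.5) and 13.0 in wild type (95). RAD21 of InsCBS5-10 had a fold of 4.26 (19.1) there. Sites 7.6 kb downstream, 16.5 kb upstream and 24.5 kb upstream within Flt3 were in all 3 lists at percentiles between 82.9 and 95. Among these, the Flt3 site had the strongest RAD21 of InsCBS5-10, with a fold of 8.54 (percentile 78.3).

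Of the 15 sites at Cdx2, 7 were called in all 3 lists, and the other 8 stayed under a percentile of 50 in each CTCF list. Inside the gene (147305989 to 147306469) CTCF was called at folds of 3.31 (percentile 10.0) in DelCBS7-10 and 3.42 (11.7) in InsCBS5-10, and was not called in wild type. At 12.6 kb upstream, within Urad, CTCF was called in wild type alone (5.04, percentile 44.6), while RAD21 was called in both its lists, at 7.96 (72.8) in InsCBS5-10 and 9.59 (93.8) in the list named wild type. At 6.6 kb downstream, DelCBS7-10 (4.49) and wild type (4.38) had CTCF peaks, InsCBS5-10 had none, and RAD21 of InsCBS5-10 had a fold of 5.33 (37.0).

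Cdx1, on chromosome 18 from 61018862 to 61036199, had 7 sites in all 3 lists, and 5 of its 8 InsCBS5-10 sites carried RAD21. A site of this kind was inside the gene (61034705 to 61035123), with CTCF folds of 5.93 (percentile 61.3) in DelCBS7-10, 5.72 (52.4) in InsCBS5-10 and 10.8 (87.4) in wild type. RAD21 there had a fold of 4.18 (17.9) in InsCBS5-10 and 5.26 (64.9) in the list named wild type. The highest wild-type fold was 3.8 kb beyond the higher end of the gene, with CTCF at 6.72 (percentile 74.1) in DelCBS7-10, 8.62 (88.4) in InsCBS5-10 and 10.9 (87.7) in wild type. RAD21 of InsCBS5-10 on that site was near the bottom of its list (3.17, percentile 3.6). A weak peak 1.5 kb beyond the lower end was called in InsCBS5-10 alone (3.35, percentile 10.5). The strongest RAD21 of InsCBS5-10 was farther away, at 40.3 kb within Camk2a, with a fold of 11.6 (95.4). In the list named wild type the strongest was 29.6 kb beyond the lower end, at 9.23 (92.4), where InsCBS5-10 had RAD21 at 8.03 (73.5). That flanking site had CTCF at 9.29 (95.4) in DelCBS7-10, 9.23 (92.1) in InsCBS5-10 and 9.13 (78.0) in wild type.

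Cdx4 lies on chromosome X from 103321398 to 103330224 and was the only member with no site called in all 3 CTCF lists. Of protein-coding genes 82.0% had such a site within 50 kb, as had 9 of the 10 members. Its sites all lay downstream within Chic1. At 41.3 kb CTCF was called in wild type alone (5.62, percentile 50.1), and at 41.6 kb in InsCBS5-10 (6.86, 70.0) and wild type (5.44, 48.6). At 44.2 kb it was called in DelCBS7-10 (4.89, 41.6) and wild type (3.97, 31.1). A single RAD21 peak of InsCBS5-10 (4.47, percentile 22.5) spanned the sites at 41.3 and 41.6 kb. The upstream flanking site, 61.3 kb away between genes, had CTCF at 5.69 (percentile 51.9) in InsCBS5-10 and 7.9 (69.3) in wild type, was not called in DelCBS7-10, and had RAD21 of InsCBS5-10 at 4.41 (21.6). The RAD21 list named wild type had 9 peaks around Cdx4, of which 7 had no CTCF peak, and the strongest of these lay 47.0 kb upstream (6.71, percentile 77.7).

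**Figure D2:**
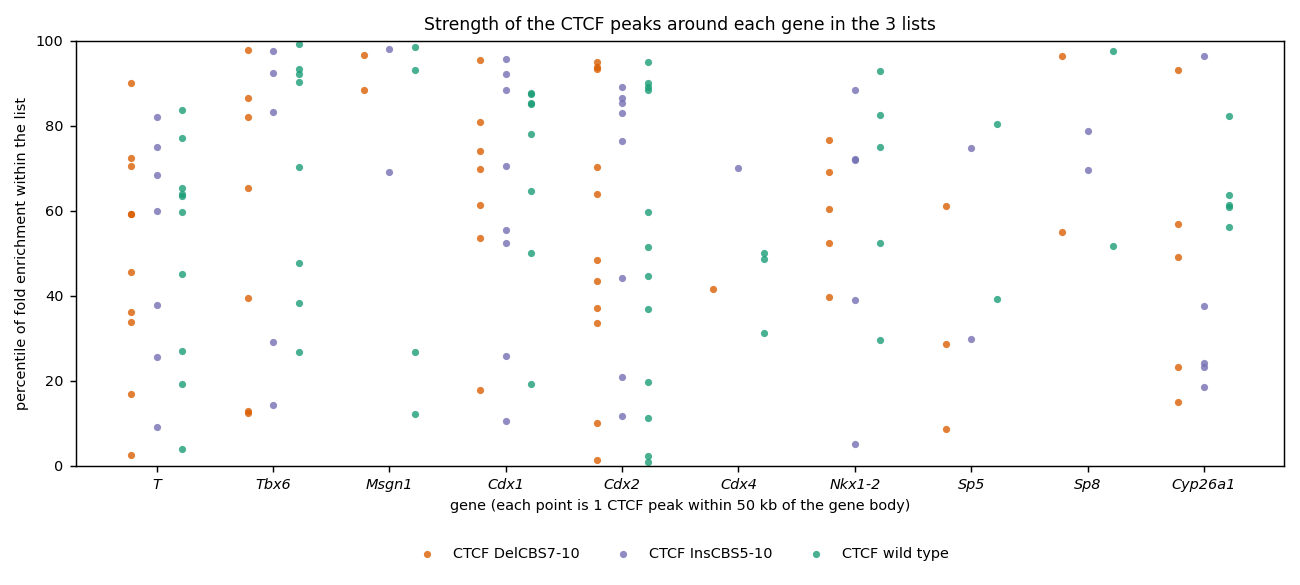
Percentile of fold enrichment in its own list for each CTCF peak within 50 kb of each gene, with a point per peak and a colour per list. The highest point of Tbx6, Msgn1, Sp5, Sp8 and Cyp26a1 is the same site in each list, and Tbx6 in wild type reaches 99.3.

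Nkx1-2, a homeobox gene of the caudal epiblast, lies on chromosome 7 from 132596239 to 132599637. All 5 of its sites were called in all 3 CTCF lists. The site inside the gene (132596845 to 132597633) had folds of 5.44 (percentile 52.4) in DelCBS7-10, 4.92 (38.9) in InsCBS5-10 and 3.84 (29.5) in wild type, and no RAD21 in either list. The highest wild-type fold lay 20.4 kb downstream within Oat, with CTCF at 6.38 (69.0) in DelCBS7-10, 7.0 (72.0) in InsCBS5-10 and 12.2 (92.8) in wild type. RAD21 was not called there in InsCBS5-10, and had a fold of 5.82 (percentile 70.5) in the list named wild type. Farther out, a single RAD21 peak of InsCBS5-10 (7.28, percentile 65.1) spanned sites 44.3 and 44.8 kb downstream, with its summit 44.8 kb away. At 44.3 kb CTCF had 5.87 (60.3) in DelCBS7-10, 7.01 (72.1) in InsCBS5-10 and 9.88 (82.6) in wild type. At 44.8 kb it had 4.79 (39.6), 3.06 (5.1) and 5.84 (52.4) in these lists. RAD21 of InsCBS5-10 was also called 39.3 kb upstream within Lhpp (7.35, percentile 66.0).

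Sp5 and Sp8 encode zinc-finger factors of the Sp family that act with Wnt signalling, and both had a CTCF site inside the gene that all 3 lists shared. In Sp5 (chromosome 2, 70474923 to 70477726) it lay at 70476133 to 70477112, with folds of 5.91 (percentile 61.0) in DelCBS7-10, 7.22 (74.7) in InsCBS5-10 and 9.5 (80.3) in wild type. RAD21 was called over it in neither list. DelCBS7-10 alone had a second, weak peak inside Sp5 (3.21, percentile 8.6). A further site, 31.3 kb downstream within Erich2, was shared at folds of 4.21, 4.41 and 4.58 in DelCBS7-10, InsCBS5-10 and wild type. Sp5 was the only member with no RAD21 peak of InsCBS5-10 within 50 kb, whereas the list named wild type had 9 there, 8 of them without CTCF. Its flanking sites lay beyond that window. The upstream site, at 68.4 kb within Myo3b, had CTCF at 3.43 (percentile 12.2) in DelCBS7-10, 4.21 (26.6) in InsCBS5-10 and 3.49 (23.3) in wild type, with RAD21 of InsCBS5-10 at 5.1 (33.2) and no RAD21 in the list named wild type. The downstream site, at 80.6 kb, had CTCF at 4.88 (38.3) in InsCBS5-10 and 9.65 (81.1) in wild type, none in DelCBS7-10, and RAD21 of InsCBS5-10 at 4.15 (17.2).

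Sp8 (chromosome 12, 118846288 to 118852578) had 2 sites, both in all 3 lists, and 25.3% of protein-coding genes had as many or fewer. The site inside the gene (118848790 to 118850157) had CTCF folds of 5.58 (percentile 54.9) in DelCBS7-10, 6.84 (69.6) in InsCBS5-10 and 5.77 (51.7) in wild type. RAD21 of InsCBS5-10 touched it with a fold of 3.2 (percentile 4.0), and the RAD21 list named wild type had no call on it. The other site, 2.7 kb downstream (118855092 to 118855553), was strong in both assays. CTCF had folds of 9.65 (96.5) in DelCBS7-10, 7.56 (78.8) in InsCBS5-10 and 14.5 (97.6) in wild type, and RAD21 had 13.1 (98.3) in InsCBS5-10 and 6.77 (78.1) in the list named wild type. Upstream, the flanking site was 388.3 kb away, with CTCF at 5.7 (57.4) in DelCBS7-10, 7.66 (79.9) in InsCBS5-10 and 8.95 (76.8) in wild type, and RAD21 of InsCBS5-10 at 4.86 (29.4).

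The widths of the CTCF peaks inside the genes had no common order of the genotypes. Inside Sp8 the peaks spanned 1090 bp in DelCBS7-10, 1256 bp in InsCBS5-10 and 321 bp in wild type, which put them at percentiles of 99.4, 99.7 and 54.6 for width in their lists. Inside Sp5 the widths were 538, 930 and 308 bp (percentiles 85.7, 98.6 and 51.0), and inside Nkx1-2 they were 725, 379 and 150 bp (95.3, 65.4 and 6.0), in the same lists. Inside Cdx1 the wild-type peak was the widest, with 229, 325 and 419 bp in these lists (22.6, 53.2 and 80.4). Inside Cdx2 the peaks spanned 410 bp (69.7) in DelCBS7-10 and 198 bp (14.9) in InsCBS5-10, with none called in wild type. Several of the wide peaks were intervals with more than 1 summit. In DelCBS7-10, InsCBS5-10 and wild type the peaks held 3, 3 and 1 summits inside Sp8 and 1, 2 and 1 inside Sp5. Inside Nkx1-2 they held 2, 1 and 1, and each peak inside Cdx1 and Cdx2 held 1. Widths were compared after these peaks were seen, and with 1 library per group their spread between libraries is unknown.

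Cyp26a1, the enzyme that clears retinoic acid from the tailbud, lies on chromosome 19 from 37697738 to 37701536 and had 7 sites, of which 3 were in all 3 lists. Its strongest site in each CTCF list lay 2.6 kb downstream, between genes (37703775 to 37704600), with folds of 8.79 (percentile 93.2) in DelCBS7-10, 10.3 (96.3) in InsCBS5-10 and 9.86 (82.4) in wild type. RAD21 on it had a fold of 9.08 (82.7) in InsCBS5-10 and 8.78 (90.3) in the list named wild type. On the upstream side lies Cyp26c1, a second retinoic acid-degrading enzyme. The site 10.6 kb upstream, within Cyp26c1, was in all 3 lists at folds of 5.68, 4.05 and 7.18 in DelCBS7-10, InsCBS5-10 and wild type, without RAD21 in InsCBS5-10.

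The upstream sites nearer to Cyp26a1 were not shared by all lists. At 6.7 kb, within Cyp26c1, CTCF was called in DelCBS7-10 (3.54, percentile 15.0) and wild type (6.25, 56.1). At 1.8 kb it was called in wild type alone (6.9, percentile 61.4), with RAD21 of the list named wild type at 3.49 (33.0). The first upstream site with RAD21 in InsCBS5-10 lay 49.6 kb away within Exoc6, with RAD21 at 6.91 (60.2) and CTCF at 5.25 (49.2) in DelCBS7-10, 4.83 (37.5) in InsCBS5-10 and 6.83 (60.8) in wild type.

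CTCF sites around the 10 genes were shared between genotypes to about the same extent as sites near other genes. Of the 67 sites, 40 (59.7%, exact Clopper-Pearson 95% interval 47.0 to 71.5) had a call in each of the 3 CTCF lists, and the share was 51.2% over all sites within 50 kb of a protein-coding gene. Intervals cover counting error only, and neighbouring sites are not independent. Of InsCBS5-10 sites, 42 of 45 (93.3%, 81.7 to 98.6) were called in DelCBS7-10, with 83.6% near all genes. Of wild-type sites, 47 of 59 (79.7%, 67.2 to 89.0) were called in DelCBS7-10 and 41 of 59 (69.5%, 56.1 to 80.8) in InsCBS5-10, with 68.2% and 65.3% near all genes. Each of these background shares lies inside the interval of the members. With peaks of a −log10 q of 5 or more, the shares in all 3 lists were 58.5% at the members and 60.6% near all genes, so the order of both was the opposite.

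Most of the sites that were not shared were weak. Of the 27 sites called in 1 or 2 CTCF lists, 5 (18.5%, 6.3 to 38.1) reached a percentile of 50 in any list, with 10.5% near all genes. These were the site 46.6 kb downstream of Tbx6, the sites 41.3 and 41.6 kb downstream of Cdx4 and the sites 6.7 and 1.8 kb upstream of Cyp26a1. Wild type alone had 11 of the 67 sites (16.4%, 8.49 to 27.5), with 22.6% near all genes. DelCBS7-10 and wild type without InsCBS5-10 had 7 (10.4%, 4.3 to 20.3), with 6.98% near all genes. Both mutants without wild type had 2 (2.99%, 0.364 to 10.4), with 1.47% near all genes. These are the site inside Cdx2 and a site 23.3 kb downstream of Cyp26a1, with folds of 3.95 in DelCBS7-10 and 4.1 in InsCBS5-10.

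Among the 40 shared sites, the percentile of a site differed between lists by a median of 13.0 points from DelCBS7-10 to InsCBS5-10, 11.5 points from DelCBS7-10 to wild type and 14.6 points from InsCBS5-10 to wild type. Over the 22597 shared sites near all genes these differences were 12.6, 13.5 and 13.1 points. The strongest site was the same in all 3 lists for 5 members, Tbx6, Msgn1, Sp5, Sp8 and Cyp26a1. For T, the Cdx genes and Nkx1-2 it was a different site in at least 1 list. Over the 16664 protein-coding genes with a peak in each list, the strongest site was the same for 51.1%.

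**Figure D3:**
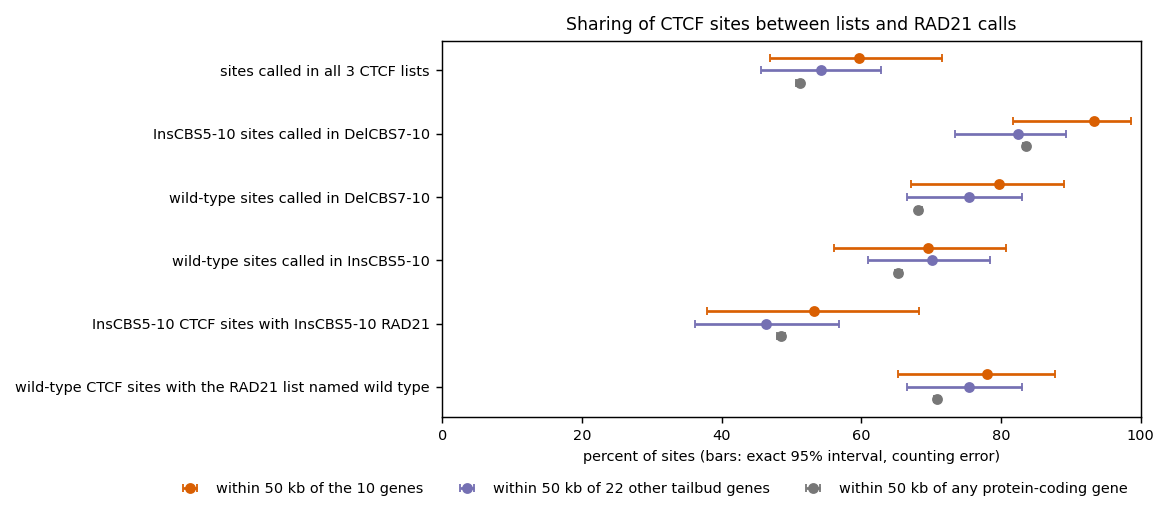
Percent of CTCF sites called in other lists or with RAD21, for sites near the 10 genes, near 22 other tailbud genes and near any protein-coding gene. Points are shares and bars are exact 95% intervals. Sites called in all 3 CTCF lists made up 59.7%, 54.3% and 51.2% in these sets.

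Cohesin was found on the CTCF sites of these genes about as often as elsewhere. Of the 45 InsCBS5-10 CTCF sites, 24 (53.3%, 37.9 to 68.3) had RAD21 in InsCBS5-10, with 48.5% near all genes. Sites called in all 3 CTCF lists had it in 23 of 40 cases (57.5%), with 56.6% near all genes, and the other sites in 5 of 27 (18.5%), with 10.5% near all genes. Of the 59 wild-type sites, 46 (78.0%, 65.3 to 87.7) had RAD21 of the list named wild type, with 70.9% near all genes. That list is longer and comes from a library known by name only, so the 2 shares are not set against each other as a change.

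RAD21 peaks outside CTCF sites were counted within each RAD21 list, and again the 2 lists are not set against each other as a change. Around the 10 genes InsCBS5-10 had 26 RAD21 peaks, and 0 of them lacked a CTCF peak in any list (exact interval 0 to 13.2%), with 4.63% over the 18706 peaks of the list on chromosomes 1 to 10, 12 to 19 and X. The list named wild type had 92 peaks there, and 46 of them (50.0%, 39.4 to 60.6) lacked CTCF, with 43.6% over the 56868 peaks on these chromosomes. By gene, 8 of its 9 peaks at Sp5, 7 of 9 at Cdx4, 6 of 9 at Nkx1-2 and 5 of 6 at Sp8 lacked CTCF, against 0 of 7 at Cdx1 and 3 of 13 at Cdx2. The counts were 5 of 13 at T, 6 of 11 at Tbx6, 3 of 7 at Msgn1 and 3 of 8 at Cyp26a1. Exact intervals by gene were wide, as at Sp5 with the highest share (51.8 to 99.7%) and Cdx1 with the lowest (0 to 41.0%). They cover counting error only, and neighbouring peaks of a list are not independent. With 10 genes looked at and no test made, they set no gene apart. At 4 of the 28 sites with RAD21 of InsCBS5-10 (14.3%, 4.03 to 32.7), CTCF of InsCBS5-10 was not called, with 10.3% near all genes. These are the site 46.6 kb from Tbx6, those 6.6 kb downstream and 12.6 kb upstream of Cdx2, and that 41.3 kb from Cdx4, and each had a wild-type CTCF peak.

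**Figure D4:**
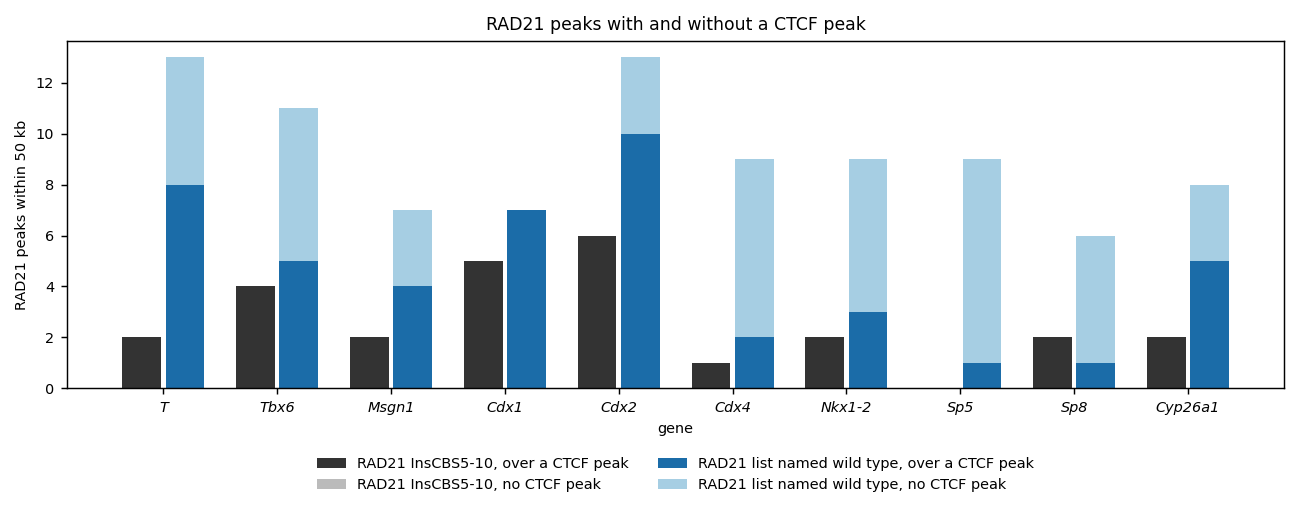
Number of RAD21 peaks within 50 kb of each gene in InsCBS5-10 and in the list named wild type, split by overlap with a CTCF peak of any list. Sp5 had 0 peaks in InsCBS5-10 and 9 in the list named wild type, 8 of which had no CTCF peak. The list named wild type holds 3.03 times as many peaks, so its counts are not read as a change.

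The nearest CTCF site with RAD21 on each side set off very different lengths of DNA around the 10 genes. The distance from the lower to the higher flanking site of InsCBS5-10 was 24.3 kb at Cdx2, 41.9 kb at Tbx6, 50.8 kb at Cdx1, 56.0 kb at Cyp26a1, 86.9 kb at Nkx1-2 and 88.9 kb at T. It was 111.7 kb at Cdx4, 140.7 kb at Msgn1, 151.8 kb at Sp5 and 397.4 kb at Sp8. With peaks of a −log10 q of 5 or more, the interval was 79.3 kb at Cdx1, 197 kb at T, 298 kb at Sp5 and 1226 kb at Cdx4, because weak flanking peaks were left out. With summits within 150 bp required for sharing, it was 181 kb at Cdx4. Sites inside Cdx1 and Sp8 also carried RAD21 of InsCBS5-10 and split these intervals. Those RAD21 peaks had a −log10 q of 4.36 and 2.2, so they too were left out at a limit of 5. The interval of Sp8 held no other protein-coding gene, and that of Cdx2 held Urad alone. The interval of Tbx6 held Ypel3, Ppp4c, Aldoa and Tlcd3b, and that of Cyp26a1 held Exoc6 and Cyp26c1, wholly or in part. These distances are between peaks and do not show that a loop was formed.

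On the nearer side, the flanking site lay a median of 7.92 kb from the gene body for the 10 members, 10.6 kb for 22 other tailbud genes and 27.5 kb for all protein-coding genes. With peaks of a −log10 q of 5 or more it lay 15.6 kb from the members and 35.9 kb from all genes. Tbx6 (1.3 kb), Cdx2 (1.5 kb), Cyp26a1 (2.6 kb), Sp8 (2.7 kb) and Cdx1 (3.8 kb) had the shortest distances, and Sp5 the longest, at 68.4 kb. A flanking site lay within 50 kb on both sides of 5 members (Tbx6, Cdx1, Cdx2, Nkx1-2 and Cyp26a1), with 24.3% over all protein-coding genes. A site on at least 1 side or inside the gene was found for 9 members, all but Sp5, with 73.0% over all genes. The genes used as background were not matched for gene density, whose part was not tested.

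The flanks were not at the same place for every member when wild-type CTCF was paired with the RAD21 list named wild type. At T the flanks lay 61.6 kb upstream and 19.3 kb downstream in InsCBS5-10, and 13.5 and 6.0 kb away in the wild-type pair. At Cyp26a1 the upstream flank lay 49.6 kb away in InsCBS5-10 and 1.8 kb away in the wild-type pair. At Msgn1 it lay 128.1 kb away in InsCBS5-10, and over the printed start, 0.1 kb away, in the wild-type pair. Downstream of Nkx1-2 it lay 44.3 kb away in InsCBS5-10 and 20.4 kb away in the wild-type pair. The upstream flanks of Cdx2 and Sp8 and the downstream flank of Cdx4 were also nearer in the wild-type pair. Sp5 had its upstream flank 68.4 kb away in InsCBS5-10 and 196.3 kb away in the wild-type pair. Its downstream flank lay 80.6 and 31.3 kb away in these pairs. Where the flanking site changed, it was thus nearer in the wild-type pair for all but the upstream flank of Sp5. At Tbx6 and Cdx1 the distances were the same in both pairs. The RAD21 list named wild type holds 3.03 times as many peaks, and the part of its length was not tested.

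**Figure D5:**
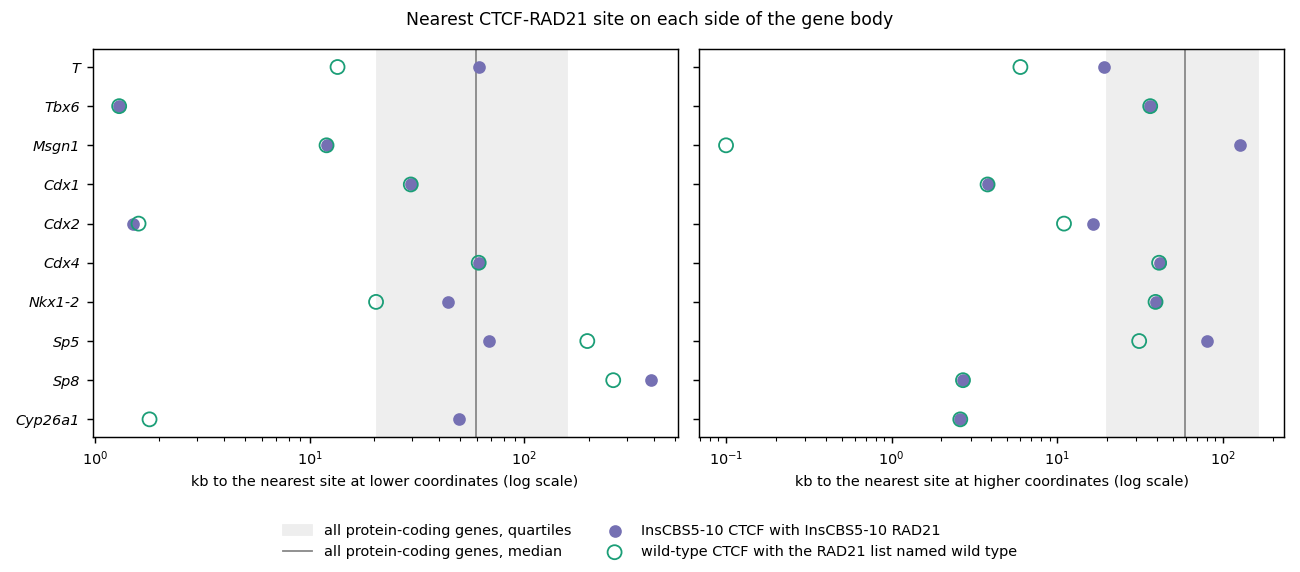
Distance in kb (log axes) from each gene body to the nearest CTCF-RAD21 site at lower and at higher coordinates, in InsCBS5-10 (filled) and in wild type with the RAD21 list named wild type (open). The grey band holds the middle of all protein-coding genes, from the lower to the upper quartile, and the line is their median, 59.4 kb at lower and 59.1 kb at higher coordinates. Band and line are for the InsCBS5-10 pair of lists alone, so the open points have no background drawn. With the wild-type pair, the median to the nearer side over all genes was 12.5 kb, in place of 27.5 kb. Tbx6 and Cdx2 lie far left of the band at lower coordinates, and Sp8 and Cyp26a1 at higher coordinates.

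CTCF within 5 kb of the gene body was called for 7 members in DelCBS7-10, 7 in InsCBS5-10 and 9 in wild type, with 58.0%, 55.5% and 64.4% over all protein-coding genes. RAD21 was there for 5 members in InsCBS5-10 (38.6% over all genes) and for 10 in the list named wild type (76.3%). Inside the gene body, CTCF was called for 5 members in DelCBS7-10 and 5 in InsCBS5-10 (Cdx1, Cdx2, Nkx1-2, Sp5 and Sp8), and for 4 in wild type, which lacked the call in Cdx2, with 41.9%, 39.6% and 47.2% over all genes. RAD21 was inside 2 members in InsCBS5-10 (26.4% over all genes) and 5 in the list named wild type (55.0%). The members are short, from 567 to 17338 bp, and over the 9754 protein-coding genes in that range of length the shares with a peak inside were 20.2%, 18.4% and 23.6% in DelCBS7-10, InsCBS5-10 and wild type. For RAD21 they were 8.86% in InsCBS5-10 and 31.4% in the list named wild type. Within 5 kb of these 9754 genes, CTCF was called for 42.7% in DelCBS7-10, 40.5% in InsCBS5-10 and 48.4% in wild type. RAD21 was within 5 kb of 23.9% of them in InsCBS5-10 and 62.6% in the list named wild type. That range was set after the peaks were seen.

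A wider list of 22 genes of the tailbud and of somite formation, among them Sox2, Fgf8, Dll1, Lfng, Mesp2 and Aldh1a2, was counted in the same way. At the 10 members 59.7% of the CTCF sites were in all 3 lists, and at these genes 75 of 138 sites (54.3%) were. There, RAD21 of InsCBS5-10 was on 45 of 97 InsCBS5-10 sites (46.4%). Each of the 22 had a CTCF-RAD21 site on at least 1 side or inside, and 7 had it on both sides within 50 kb. Dll3, a Notch ligand of the presomitic mesoderm, had the most sites in this list, with 13, and Ripply2, a repressor at the somite border, had the fewest, with 1. The nearer flank was shortest at Wnt5b (1.8 kb) and longest at Wnt5a (203.1 kb). Cyp26c1 shares its sites with Cyp26a1, since the genes are neighbours.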

How the data were processed

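CTCF was mapped in DelCBS7-10, InsCBS5-10 and wild-type gastruloids and RAD21 in InsCBS5-10, with 1 library per group, and groups were taken from the sample titles. The deposited files are narrowPeak lists, made per library. Per the submitters' processing notes, cutadapt 4.1 and MACS2 2.2.7.1 were used on mm10, and peak names show an mm10 with an edited chromosome 11. The sources used here do not give the aligner, the control or the peak caller's options. The authors' columns are a score, a fold enrichment (a ratio to local background), a −log10 q and a summit offset, and the smallest deposited −log10 q was 1.3 in each list. They were used only to describe, rank and filter peaks within a list. Depth is unknown.

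Peaks with the same start and end were collapsed to the strongest summit. CTCF peaks of the 3 lists that overlapped by 1 bp or more formed a site, and a site belonged to a gene when a summit lay within 50 kb of its body in the RefSeq annotation of GRCm38.p6, the assembly that mm10 names. A CTCF peak carried RAD21 where a RAD21 peak overlapped it by 1 bp or more. Percentiles are ranks within a list. The same counts over 20018 protein-coding genes gave the background. Values are printed for each gene's strongest wild-type site, its nearest site, sites inside it or within 5 kb, its flanking CTCF-RAD21 sites, and partly shared sites with a percentile of 50 or more. Other sites named were chosen after their values were seen. The 10 genes, the list of 22 other genes and these rules were chosen with earlier results of these data known. With 1 library per group no test was made, and shares have exact Clopper-Pearson 95% intervals. Scripts were tested on simulated data, with Python 3.11.15, pandas 2.3.3, numpy 2.4.6 and scipy 1.17.1.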

Additional observations from a re-analysis of the deposited data

How the results depend on the processing

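The choices varied were the limit on −log10 q, the window around the genes, the rule for shared sites and the RAD21 list. The counts of CTCF peaks in DelCBS7-10, InsCBS5-10 and wild type followed the window, with 32, 26 and 33 within 25 kb and 84, 74 and 94 within 100 kb, in place of 53, 45 and 59 within 50 kb. The median distance to the nearer CTCF-RAD21 site was 7.92 kb for the members, 15.6 kb with a −log10 q of 5 or more, and 3.29 kb with wild-type CTCF and the RAD21 list named wild type. Over all protein-coding genes this last pair of lists gave a median of 12.5 kb, in place of 27.5 kb, and put sites within 50 kb on both sides of 48.6% of genes, in place of 24.3%, with 7 members in place of 5. The other 35 summary values computed under an alternative stayed within their counting interval or within 1.5 times the reported value. Of 30 interval lengths recomputed for single members, 9 moved by more than 1.5 times. With a −log10 q of 5 or more, the interval of Cdx4 was 1226 kb, that of T 197 kb, that of Sp5 298 kb and that of Cdx1 79.3 kb, since weak flanking peaks were left out. With the wild-type pair, the intervals of T, Msgn1, Sp5 and Cyp26a1 were 27.6, 12.6, 230.4 and 8.2 kb. Counting summits within 150 bp as shared gave 181 kb at Cdx4. No replicate could be left out with 1 library per group. No paired analysis was possible because no group has a second library.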
